A study of Caenorhabditis elegans with 10 samples.

Results

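The array described here holds RNA from Caenorhabditis elegans fed bacteria that make double-stranded RNA against nduf-6 (F22D6.4), a gene for a subunit of mitochondrial complex I. It is 1 of 10 arrays of the series, was picked by its title and its labelled target, and is set against the wild-type array labelled as the control of the RNAi animals. The other arrays are RNAi feedings against 4 further complex I subunits, 3 missense mutants of the electron transport chain and a wild type kept on other bacteria. The series was designed to find metabolic pathways that lie downstream of such lesions. Levels were measured as log2 probe-set values on Affymetrix whole-genome arrays, and 12432 genes passed the filter on low values.

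The nduf-6 animals were N2 (Bristol) worms that ate the RNAi bacteria through 2 generations on plates and a further generation in liquid, with IPTG at 5 mM throughout. The 4 other RNAi groups were fed in the same way against nuo-5 (Y45G12B.1), ndua-13 (C34B2.8), ndab-1 (Y56A3A.19) or ndub-7 (D2030.4). The reference was N2 on HT115 E. coli both on plates and in liquid, and its label names neither IPTG nor a bacterium with an empty vector. The missense mutants gas-1(fc21), mev-1(kn1) and isp-1(qm150) and a second N2 wild type came from OP50 plates and K12 liquid culture, and they are given only for their levels. The isp-1 label cites the sequence name that the mev-1 label also carries. All animals were mostly young adults, enriched by sucrose centrifugation and extracted as whole worms, without a count of their stages. RNA of 3 biological replicates was pooled on each array, so each condition has 1 value, and a difference between 2 arrays has a size but no error and no p-value.

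Complex I takes electrons from NADH and passes them to ubiquinone. Its redox centres lie in core subunits, and its accessory subunits, of which nduf-6 is one, surround and stabilise the core. Feeding RNAi spreads through most worm tissues, the germline included. A hermaphrodite makes its sperm in late larval life and then turns to oocytes for the rest of its life.

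The targeted transcript was examined first, because it checks the label. Its log2 level was 11.06 in the array labelled nduf-6 RNAi, against 11.48, 11.22, 11.15 and 11.69 in RNAi of nuo-5, ndua-13, ndab-1 and ndub-7 and 11.32 in the HT115 wild type. Missense mutants had 11.40 to 11.61, and the K12 wild type had nduf-6 at 11.02. In the array labelled for it, nduf-6 therefore stood at 83.9% of the HT115 wild type, a difference of -0.25 (log2), and the K12 wild type was lower still. The level of nduf-6 does not set its array apart from the wild types, so the array is named by its label in what follows. The array labelled nuo-5 RNAi had nuo-5 at 51.9% of the HT115 wild type, for comparison, while that labelled ndab-1 RNAi had ndab-1 at 211% by 1 probe set and 88.3% by the other.

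Of 12432 genes, 362 were at least 2-fold higher in nduf-6 RNAi than in the HT115 wild type (2.91%) and 504 at least 2-fold lower (4.05%), and the median of all differences was 0.04 (log2). The nuo-5 RNAi array had 510 genes 2-fold higher (4.1%) and 410 lower (3.3%), and the ndub-7 RNAi array had 1442 higher (11.6%) and 1301 lower (10.5%), against the same wild type. The 2 wild types, 1 on K12 and 1 on HT115, differed by as much, with 522 genes 2-fold higher (4.2%) and 383 lower (3.08%) on K12. Deposited array medians lay between 5.88 and 6.01, and precision is limited by how few arrays there are. Because the RNAi arrays share 1 wild-type array, a gene that is unusual in that array appears in each of their differences. One such gene was pro-3, at 2.95 in nduf-6 RNAi, between 2.55 and 2.60 in the 4 other RNAi arrays, and at 6.61 in the HT115 wild type.

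Sperm genes gave a large block of low values. All 23 major sperm protein (MSP) genes, which encode the cytoskeletal protein that moves the crawling sperm and signals to oocytes, were at least 2-fold lower in nduf-6 RNAi than in the HT115 wild type, against 4.05% of all genes. Their differences lay between -3.07 and -1.92 with a median of -2.64 (log2), which is 6.21-fold lower. MSP genes had a median log2 level of 8.61 in nduf-6 RNAi, against 11.54 to 13.02 in the 4 other RNAi arrays, highest in ndub-7 RNAi, and 11.30 in the HT115 wild type. The gas-1, mev-1 and isp-1 mutants had MSP medians of 12.01, 12.42 and 11.42, and the K12 wild type had 11.89. Every MSP gene was lowest of the 10 arrays in nduf-6 RNAi, which held for 9.33% of all genes. The MSP genes are near-identical copies, and 23 of their 24 probe sets have names that mark shared sequence, so they are not 23 independent measurements. The remaining probe set, of msp-32, did not pass the filter and showed no such difference. It was near the bottom of the scale, at 1.94 (log2) in nduf-6 RNAi and 2.06 in the HT115 wild type.

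Single MSP genes show the spacing of the arrays. The gene msp-78 stood at 10.46 (log2) in nduf-6 RNAi, against 13.33, 13.14, 13.52 and 14.20 in RNAi of nuo-5, ndua-13, ndab-1 and ndub-7 and 13.09 in the HT115 wild type. The gene msp-33, at 7.46 in nduf-6 RNAi, stood between 10.54 and 12.49 in the 4 other RNAi arrays and at 10.53 in the HT115 wild type. The nduf-6 value of each lay far below a range of 9 arrays in which ndub-7 RNAi was highest. In whole-worm RNA, fewer sperm-forming cells and less RNA in each of them cannot be told apart.

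Most sperm genes outside the MSP family were also lower in nduf-6 RNAi. Of 19 measured genes of the small MSP-domain and sperm-specific families, 15 were at least 2-fold lower in nduf-6 RNAi than in the HT115 wild type (4.05% of all genes were). The 19 had a median of -2.51 (log2). The MSP-domain gene msd-4 stood at 4.64 in nduf-6 RNAi, against 8.21, 7.90, 8.51 and 10.09 in RNAi of nuo-5, ndua-13, ndab-1 and ndub-7 and 8.26 in the HT115 wild type. The differences from that wild type were -3.09 for nspd-4, of a nematode-specific peptide family, and -3.08 for ssq-3, of a sperm-specific family. The probe sets of msd-4, nspd-4 and ssq-3 also have names that mark shared sequence, so these genes are not independent measurements. Another ssq-3 probe set differed by -3.84. Further probe sets of ssq-3, ssq-1 and ssq-2 did not pass the filter and showed no such difference. They were near the bottom of the scale, with ssq-3 at 2.54 in nduf-6 RNAi and 2.49 in the HT115 wild type. One member, ssp-19, was near the bottom of the scale throughout, at 3.76 in nduf-6 RNAi and 3.66 in the HT115 wild type. Higher on the scale and within 2-fold, ssp-37 stood at 8.80 in nduf-6 RNAi and 8.94 in the HT115 wild type. Likewise ssp-10 had 7.12 and 8.07, and nspd-9 had 5.08 and 5.29. In 17 of the 19 genes nduf-6 RNAi was the lowest of the 5 RNAi arrays (19.7% of all genes), and in 1 the highest (29.2%).

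The 6 genes of sperm signalling and chromatin were all at least 2-fold lower (4.05% of all genes were), with a median of -1.82 (log2). The sperm chromatin protein gene spch-1 had a level of 3.32 in nduf-6 RNAi, against 7.19, 7.10, 7.72 and 9.27 in RNAi of nuo-5, ndua-13, ndab-1 and ndub-7 and 6.58 in the HT115 wild type. The sperm phosphatase genes gsp-3 and gsp-4 differed from that wild type by -2.68 and -1.93, the histone variant gene htas-1 by -1.64, and the PDZ-domain genes smz-1 and smz-2 by -1.09 and -1.71. These 6 genes stood 3.32 to 5.28 in nduf-6 RNAi and 5.40 to 7.13 in the HT115 wild type, with 1 array each. The probe sets of spch-1, gsp-3, gsp-4 and smz-2 have names that mark shared sequence too.

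The spe genes of sperm maturation and fertilization were mostly low on the scale. Only 10 of 23 passed the filter on low values, and their median difference was -0.12 (log2), with 5 of the 10 lowest of the 10 arrays in nduf-6 RNAi (9.33% of all genes). The paternal-effect gene spe-11 alone was 2-fold lower (4.05% of all genes were). It stood at 4.08 in nduf-6 RNAi, 5.71 to 8.03 in the 4 other RNAi arrays and 6.01 in the HT115 wild type. The membrane trafficking gene spe-39, which is used in many tissues, stood at 9.32 in nduf-6 RNAi and 9.48 in the HT115 wild type. The presenilin-like spe-4 had 3.46 in nduf-6 RNAi and 3.21 in the HT115 wild type, below the 4.03 to 6.42 of the 4 other RNAi arrays.

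**Figure D1:**
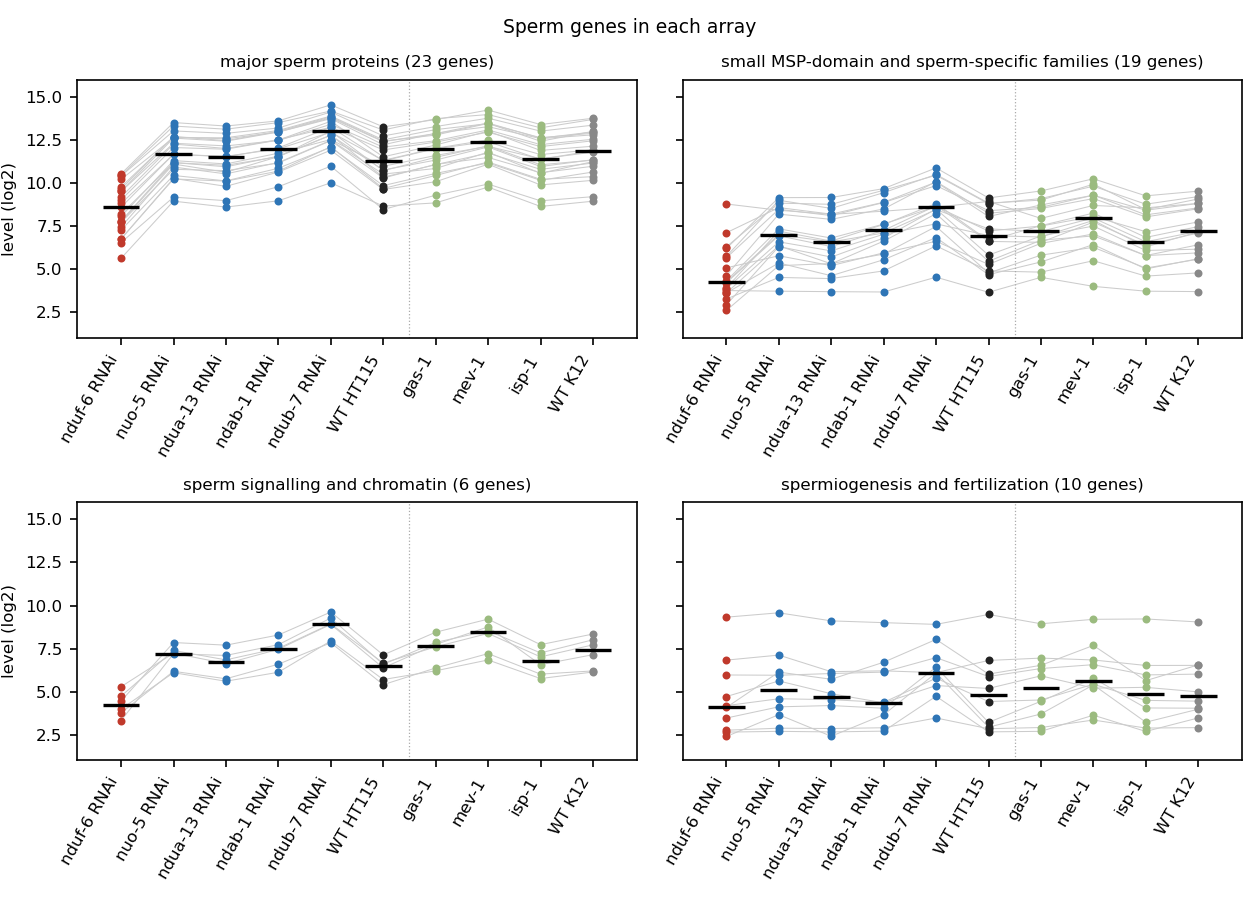
Log2 level of each measured sperm gene (points joined by grey lines) in the 10 arrays, in 4 panels by role, with black bars at the array medians and a dotted line between the HT115 arrays on the left and the K12 arrays on the right. The median bar of nduf-6 RNAi is the lowest in the first 3 panels, with an MSP median of 8.61 against 11.30 in the HT115 wild type, and ndub-7 RNAi has the highest MSP median.

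Over the whole list, 73 sperm genes were on the array and 58 were measured. Of these, 45 were at least 2-fold lower in nduf-6 RNAi than in the HT115 wild type (4.05% of all genes were). The list summed to 14574 on the linear scale in nduf-6 RNAi, between 89372 and 241186 in the 4 other RNAi arrays, and to 81860 in the HT115 wild type. Set against the 4 other RNAi arrays with limma, 44 sperm genes had an unadjusted p below 0.05 and all 44 were lower (4.25% of all genes were), but none passed a Benjamini-Hochberg adjusted p of 0.05 (0.0161% of all genes were lower). The smallest adjusted p in the list was 0.185, for msp-78, at -3.09 with a standard error of 0.41 (log2). Without the ndub-7 RNAi array, in which sperm genes were high, 23 sperm genes passed, 19 of them MSP genes, and over all alternatives the adjusted p of msp-78 lay between 0.0352 and 0.681.

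The list of regulators of sperm fate, which was not split by the direction in which its members act, did not show this block. The 16 measured regulators of sperm fate had a median difference from the HT115 wild type of 0.15 (log2), and none was 2-fold lower or higher. The gene fog-1, which directs germ cells to sperm, stood at 8.16 in nduf-6 RNAi, against 8.33, 7.94, 7.75 and 7.57 in RNAi of nuo-5, ndua-13, ndab-1 and ndub-7 and 7.27 in the HT115 wild type. Its partner fog-3 was low in both arrays, at 3.58 in nduf-6 RNAi and 3.23 in the HT115 wild type. The seminal fluid protease gene try-5, a male marker, was at 3.67 in nduf-6 RNAi and 3.12 in the HT115 wild type. Only 5 of 13 male and seminal fluid genes were measured, too few to describe males in these cultures.

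Genes of the female germline lay slightly higher. Of 32 oocyte and eggshell genes, 30 were higher in nduf-6 RNAi than in the HT115 wild type (54.9% of all genes were), with a median of 0.29 (log2), and none by 2-fold. Their median difference from that wild type was 0.14, -0.15, -0.26 and -0.77 in RNAi of nuo-5, ndua-13, ndab-1 and ndub-7. The egg surface gene egg-2 stood at 12.25 in nduf-6 RNAi, against 11.98, 11.75, 11.43 and 10.90 in the same 4 arrays and 11.70 in the HT115 wild type. The oocyte maturation gene oma-2 had 12.77 in nduf-6 RNAi and 12.24 in the HT115 wild type, and the translational regulator puf-5 had 13.28 and 12.80. Oocyte genes were highest of the 10 arrays in nduf-6 RNAi in 20 of 32 cases (15.3% of all genes).

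Germ cell and meiosis genes had a median difference of 0.19 (log2) from the HT115 wild type, against 0.04 over all genes. Of the 27 genes 22 were higher (54.9% of all genes were). The germ granule gene pgl-3 was at 11.08 in nduf-6 RNAi, 10.09 to 10.47 in the 4 other RNAi arrays and 10.47 in the HT115 wild type. In contrast, the meiotic gene syp-3 stood at 8.74 in nduf-6 RNAi and 9.14 in the HT115 wild type. The yolk protein gene vit-1 was at 10.76 in nduf-6 RNAi, against 13.20, 11.60, 12.53 and 12.91 in the 4 other RNAi arrays and 11.78 in the HT115 wild type. Its relative vit-5 was highest of the 10 arrays in nduf-6 RNAi, at 15.85, with 15.34 in the HT115 wild type. By limma against the 4 other RNAi arrays, none of these oocyte, germ cell and yolk genes passed an adjusted p of 0.05. At an unadjusted p of 0.05, 1 oocyte gene, 5 germ cell genes and 1 yolk gene were higher (3.57% of all genes were), and 1 yolk gene was lower.

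**Figure D2:**
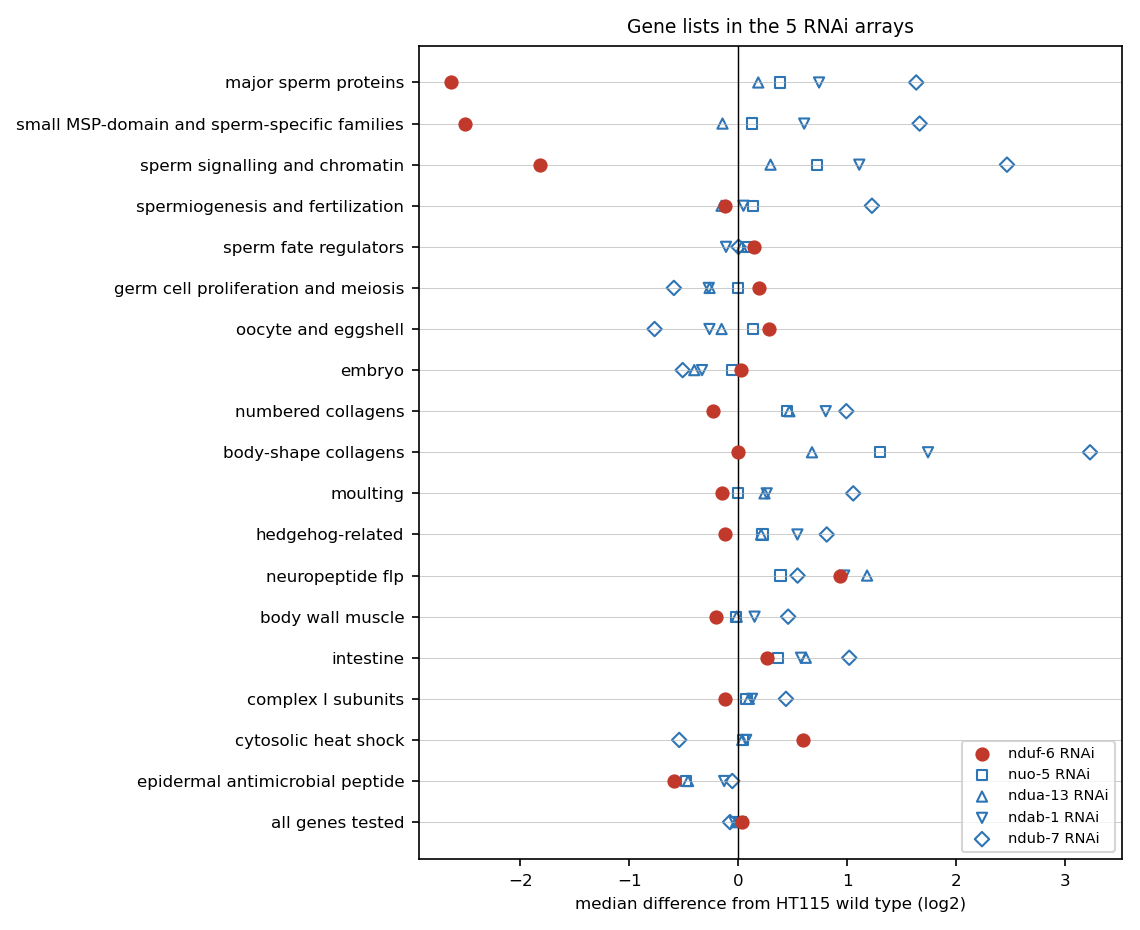
Median log2 difference from the HT115 wild type for 14 gene lists, the 4 roles of the sperm list and all genes tested, with filled red circles for nduf-6 RNAi and open blue symbols for the 4 other RNAi arrays. The MSP median lies at -2.64 in nduf-6 RNAi and between 0.18 and 1.63 in the others, and for body-shape collagens at 0.00 against 0.68 to 3.23.

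Some cuticle collagens also had large low values. Worms build a cuticle at each moult from collagens whose expression is tied to the stage. Of 111 measured numbered collagen genes, 16 were at least 2-fold lower in nduf-6 RNAi than in the HT115 wild type (4.05% of all genes were) and 7 at least 2-fold higher (2.91%), with a median of -0.23 (log2). The same median was 0.45, 0.47, 0.80 and 0.99 in RNAi of nuo-5, ndua-13, ndab-1 and ndub-7. In 77 of the 111 genes nduf-6 RNAi was the lowest of the 5 RNAi arrays (19.7% of all genes).

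The gene col-129 stood at 7.88 in nduf-6 RNAi, against 11.79, 11.21, 12.15 and 12.80 in RNAi of nuo-5, ndua-13, ndab-1 and ndub-7 and 11.53 in the HT115 wild type. Likewise, col-139 had 8.67 in nduf-6 RNAi, 11.68 to 13.03 in the 4 others and 12.11 in the HT115 wild type. For col-81 the values were 7.14 in nduf-6 RNAi, 10.18 to 12.06 in the 4 others and 10.45 in the HT115 wild type. In each of these 3 genes nduf-6 RNAi was the lowest and ndub-7 RNAi the highest of the 10 arrays.

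The genes col-120, col-49 and col-60 differed from the HT115 wild type by -2.96, -2.91 and -2.76 (log2). The adult collagen gene col-19, chosen after its values were seen, was at 11.56 in nduf-6 RNAi, 11.62 to 12.04 in the 4 other RNAi arrays and 12.66 in the HT115 wild type. Other collagens went the opposite way against the wild type. The gene col-41 had 8.72 in nduf-6 RNAi, against 9.70, 10.70 and 10.27 in RNAi of nuo-5, ndua-13 and ndab-1, a higher level still in ndub-7 RNAi, and 6.12 in the HT115 wild type. It was therefore higher than that wild type, like each of the 4 others, and lower than each of them.

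Body-shape collagens, whose loss makes worms short, rolled or blistered, had a median difference of 0.00 (log2) in nduf-6 RNAi, against 0.68 to 3.23 in the 4 other RNAi arrays. With the K12 wild type as control the nduf-6 median was -0.65. The blister gene bli-2, a collagen of the struts of the adult cuticle, stood at 4.54 in nduf-6 RNAi, against 7.53, 6.62, 7.97 and 10.11 in RNAi of nuo-5, ndua-13, ndab-1 and ndub-7 and 6.23 in the HT115 wild type. Its partner bli-1 had 5.27 in nduf-6 RNAi, 7.54 to 10.64 in the 4 others and 6.08 in the HT115 wild type. The shape genes dpy-8 and sqt-1 were higher than in the HT115 wild type, by 2.44 and 1.43, and lay below each of the 4 other RNAi arrays. Of the 17 body-shape collagens, 13 were lowest of the 5 RNAi arrays in nduf-6 RNAi (19.7% of all genes).

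Moulting genes had a median of -0.15 and hedgehog-related genes of -0.12 (log2). The moulting gene mlt-10 stood at 7.29 in nduf-6 RNAi, against 8.06, 7.89, 8.44 and 9.84 in the 4 other RNAi arrays and 7.93 in the HT115 wild type. The hedgehog-related gene grd-5 had 8.63 in nduf-6 RNAi, 10.21 to 11.38 in the 4 others and 10.18 in the HT115 wild type. Its relative grl-11 was at 2.51 in nduf-6 RNAi and 5.49 in the HT115 wild type, but at 2.41 to 2.56 in the 4 others. None of the collagen, moulting and hedgehog-related genes passed an adjusted p of 0.05 by limma against the 4 other RNAi arrays, while 38 of 111 numbered collagens, 7 of 17 body-shape collagens and 5 of 42 hedgehog-related genes were lower at an unadjusted p of 0.05 (4.25% of all genes were). Of the 20 moulting genes 1 was, a share near that of all genes. Among the alternatives, collagens passed as lower with all 10 arrays (2 genes), without ndub-7 RNAi (3) and with no filter (1). Beside the sperm median of -2.51 in nduf-6 RNAi and 1.79 in ndub-7 RNAi, the numbered collagens stood at -0.23 and 0.99, moulting genes at -0.15 and 1.06 and body wall muscle genes at -0.21 and 0.46, all against the HT115 wild type. Body-shape collagens stood at 0.00 in nduf-6 RNAi and 3.23 in ndub-7 RNAi. Of the 17 muscle genes 13, and of 24 genes of the TCA cycle 15, were lowest of the 5 RNAi arrays in nduf-6 RNAi (19.7% of all genes). The part of these other lists, or of the animals' stage, in the sperm difference was not tested.

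Counting ranks needs no control array. In 147 genes nduf-6 RNAi was the lowest of all 10 arrays by at least 2-fold (1.18%), against 31 for nuo-5 (0.249%), 2 for ndua-13 (0.0161%), 0 for ndab-1 and 143 for ndub-7 RNAi (1.15%). Sperm genes made up 45 of the 147 and collagens 9, and 93 belonged to neither list. In 21 genes nduf-6 RNAi was the highest of all 10 by at least 2-fold (0.169%). Of the 504 genes at least 2-fold below the HT115 wild type, 250 had nduf-6 RNAi lowest of the 10 arrays. That rank was favoured in advance, because the 504 were picked by a low nduf-6 value. In 192 of them ndub-7 RNAi was also highest of the 10 arrays, the order seen in the sperm genes. Over all 12432 genes nduf-6 RNAi was lowest in 1160, and 712 had that order.

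Large gaps below the other arrays also belonged to genes known here only by sequence names. The gene Y38C1AA.7 stood at 2.27 in nduf-6 RNAi, against 7.06, 6.08, 7.23 and 8.79 in RNAi of nuo-5, ndua-13, ndab-1 and ndub-7 and 6.47 in the HT115 wild type. In the same order of arrays C04F12.7 had 2.46, against 6.33, 6.19, 7.25 and 8.95, and 6.56 in the HT115 wild type. The gene R09E10.6 had 3.60 in nduf-6 RNAi, 7.36 to 9.59 in the 4 others and 7.56 in the HT115 wild type. All 3 had the order of the sperm genes. F58A6.9 was at 6.07 in nduf-6 RNAi and 9.41 in the HT115 wild type, and E01G4.6 was at 3.34 and 6.54. E01G4.6 was also 7.92 to 11.07 in the 4 other RNAi arrays, above the HT115 wild type in each.

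A fit with limma asked where the nduf-6 array lay outside the spread of the 4 other RNAi arrays. It passed 12 genes as higher (0.0965%) and 2 as lower (0.0161%) at an adjusted p of 0.05, with 444 higher (3.57%) and 528 lower (4.25%) at an unadjusted p of 0.05. The single array was assumed to vary like the other 4, whose spread includes real differences between their targets. In 11 of the 14 genes the 4 other arrays stood below 3.5 (log2), near the bottom of the scale, and 4 genes had a level above the median of all values in any of the 5 arrays. Of the 12 higher genes, 7 averaged below the filter level of 2.66 in the other 9 arrays and were tested only because nduf-6 RNAi was high, so their p-values are not given. No gene passed when nuo-5, ndua-13 or ndab-1 RNAi was left out, with 1254, 870 and 562 genes at an unadjusted p of 0.05, and 100 passed without ndub-7 RNAi. Over the alternatives tried, semo-1 passed in 6 of 11, pud-4 in 7 of 11 and asp-8 in 3 of 11.

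The C-type lectin gene clec-210 was high in nduf-6 RNAi alone. Its level was 8.36 in nduf-6 RNAi, against 2.40, 2.69, 2.83 and 2.39 in RNAi of nuo-5, ndua-13, ndab-1 and ndub-7 and 2.21 in the HT115 wild type. The other 4 arrays held between 2.25 and 2.45, so clec-210 was at the bottom of the scale everywhere but in nduf-6 RNAi. It passed the filter on low values only through the nduf-6 array, so the difference is a description. The cytochrome P450 gene cyp-34A10 showed the same at a lower level, with 5.56 in nduf-6 RNAi, 2.41 to 2.84 in the 4 others and 2.44 in the HT115 wild type. H25K10.4 had 5.10 in nduf-6 RNAi and 2.46 to 2.62 in the other 9 arrays. Both passed the filter in the same way as clec-210.

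The lysosomal lipase gene lipl-3, known to be induced by fasting, was at 6.47 in nduf-6 RNAi, against 3.53, 3.95, 3.56 and 3.43 in the 4 other RNAi arrays and 3.56 in the HT115 wild type. Its difference of 2.86 from the 4 RNAi arrays missed the threshold, with an adjusted p of 0.0617 by limma. The mev-1 mutant and the K12 wild type had intermediate lipl-3 levels of 5.02 and 4.85. The invertebrate lysozyme gene ilys-5 lay low, at 10.62 in nduf-6 RNAi, 13.62 to 14.54 in the 4 others and 13.25 in the HT115 wild type (adjusted p 0.0928 by limma). The acid phosphatase gene acp-6 had 10.25 in nduf-6 RNAi, 12.46 to 13.08 in the 4 others and 12.13 in the HT115 wild type (adjusted p 0.149 by limma). The globin gene glb-1 had 11.50 in nduf-6 RNAi and 12.56 to 12.73 in the 4 others, and 12.56 in the HT115 wild type (adjusted p 0.18 by limma).

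Other genes were apart because the nduf-6 array stayed near the wild type while the 4 other RNAi arrays did not. Of the 12 genes named with the smallest p in each direction, 7 of the lower and 6 of the higher lay within 2-fold of the HT115 wild type in nduf-6 RNAi. The gene pud-4, of a family first known as proteins abundant in insulin receptor mutants, was lowest of the 10 arrays in nduf-6 RNAi, at -0.87 (log2) from the HT115 wild type, which had 6.37, while the 4 other RNAi arrays stood at 11.59 to 12.62. This difference of -6.59 with a standard error of 0.41 from the 4 RNAi arrays passed the threshold (log2, adjusted p 0.0303 by limma). Its neighbour in the family, pud-3, had 5.06 in nduf-6 RNAi, against 12.50, 11.62, 12.08 and 13.38 in those arrays and 4.58 in the HT115 wild type (adjusted p 0.0595 by limma). The gas-1, mev-1 and isp-1 mutants held pud-3 at 10.84, 8.77 and 12.31, and the K12 wild type at 7.24. Of the 8 arrays of mutant or RNAi animals, nduf-6 RNAi alone had pud-3 and pud-4 below the K12 wild type.

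The potassium channel gene twk-46 had the same split with nearly no spread. It stood at 2.90 in nduf-6 RNAi, against 5.79, 6.02, 5.55 and 5.53 in RNAi of nuo-5, ndua-13, ndab-1 and ndub-7 and 2.94 in the HT115 wild type. The gas-1, mev-1 and isp-1 mutants had 5.91, 5.40 and 5.55, and the K12 wild type had 2.84. The adjusted p against the 4 RNAi arrays was 0.116 by limma. The aspartyl protease gene asp-8 had 7.76 in nduf-6 RNAi, 9.87 to 10.03 in the 4 others and 7.05 in the HT115 wild type, and passed at 0.217 times the mean of the 4 others (adjusted p 0.0426 by limma). Y52B11B.1 had 3.62 in nduf-6 RNAi, 6.89 to 7.47 in the 4 others and 3.39 in the HT115 wild type.

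Of the genes named as higher than in the 4 other RNAi arrays, 3 that were near the HT115 wild type are given here. The gene nhj-1, which acts in DNA repair by end joining, stood at 10.42 in nduf-6 RNAi, against 8.59, 8.71, 8.22 and 7.92 in RNAi of nuo-5, ndua-13, ndab-1 and ndub-7 and 10.56 in the HT115 wild type. The K12 arrays, mutants and wild type, held nhj-1 between 10.46 and 10.62, so the 4 other RNAi arrays alone were low. The F-box gene fbxa-38 had 7.29 in nduf-6 RNAi, 5.76 to 6.01 in the 4 others and 7.09 in the HT115 wild type. The cilium gene dyf-17 had 6.83 in nduf-6 RNAi, 4.17 to 5.19 in the 4 others and 6.49 in the HT115 wild type. Their adjusted p values by limma were 0.253, 0.294 and 0.293, and none of these 3 genes passed.

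**Figure D3:**
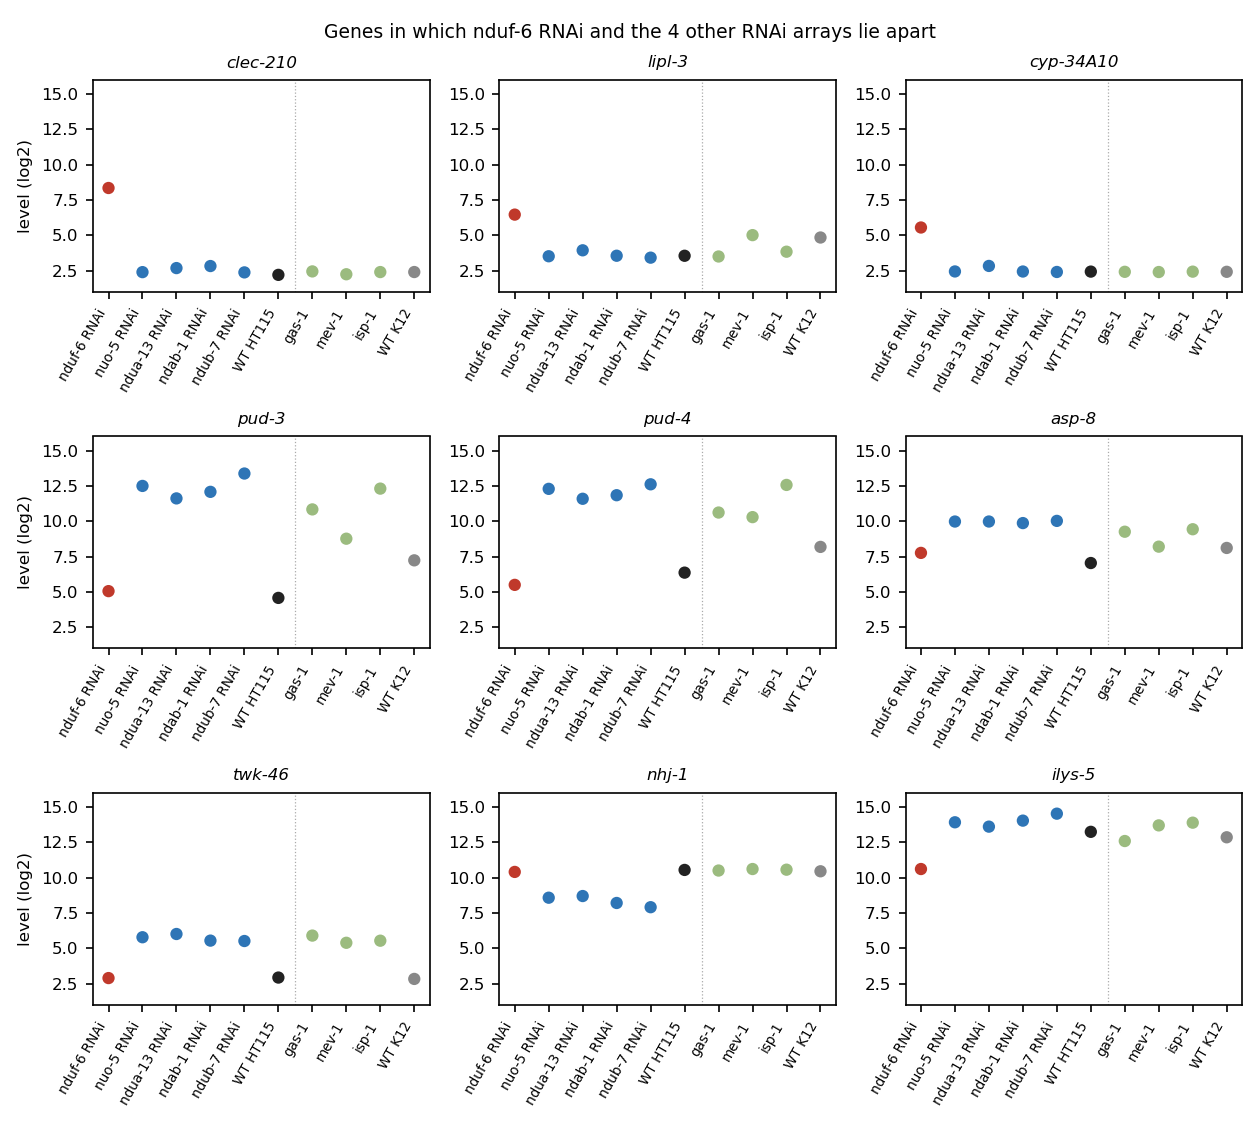
Log2 levels of 9 genes in the 10 arrays, with red for nduf-6 RNAi, blue for the 4 other RNAi arrays, green for the missense mutants and black and grey for the HT115 and K12 wild types. The nduf-6 point is apart from all others for clec-210, lipl-3, cyp-34A10 and ilys-5, and beside the HT115 wild type for pud-3, pud-4, asp-8, twk-46 and nhj-1.

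Several genes named here by size or by limma belong to sulfur metabolism, which was not tested as a theme. The methanethiol oxidase gene semo-1, whose product releases hydrogen sulfide from a methylated thiol, stood at 12.95 in nduf-6 RNAi, against 9.22, 9.40, 9.52 and 9.52 in RNAi of nuo-5, ndua-13, ndab-1 and ndub-7 and 8.56 in the HT115 wild type. It was higher by 4.39 (log2) than in that wild type and 11.6-fold higher than the mean of the 4 RNAi arrays, by 3.54 with a standard error of 0.20 (log2, adjusted p 0.0303 by limma). Among the K12 arrays semo-1 reached 11.20 in gas-1, the complex I missense mutant, and 8.71 to 9.79 in the rest. The sulfurtransferase gene mpst-3 had 11.82 in nduf-6 RNAi, against 9.52, 9.61, 9.75 and 9.43 in the 4 other RNAi arrays and 9.42 in the HT115 wild type. It was higher by 2.25 than the 4 RNAi arrays and missed the threshold, with an adjusted p of 0.0568 by limma. The methyltransferase gene rips-1, known from thiol stress, had 12.41 in nduf-6 RNAi, against 10.27, 10.14, 11.29 and 10.79 in the 4 others and 9.36 in the HT115 wild type.

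From the list of 9 HIF-1 and hydrogen sulfide genes, 3 members were highest of the 10 arrays in nduf-6 RNAi (15.3% of all genes), none of them past the limma threshold. Another 3 were lowest of the 5 RNAi arrays in nduf-6 RNAi (19.7% of all genes). The quinone oxidoreductase gene sqrd-1, whose product passes electrons from sulfide to ubiquinone, stood at 10.51 in nduf-6 RNAi. That was 1.00 (log2) above the mean of the 4 others. The lowest of these was ndua-13 RNAi at 9.30, so all 4 lay above the 8.56 of the HT115 wild type. The gas-1 mutant had sqrd-1 at 10.17. The persulfide dioxygenase gene ethe-1 had 8.87 in nduf-6 RNAi, 7.55 to 8.39 in the 4 others and 8.07 in the HT115 wild type. The cysteine synthase-like gene cysl-3 had 10.57 in nduf-6 RNAi, 9.57 to 10.09 in the 4 others and 9.33 in the HT115 wild type. Their adjusted p values against the 4 other RNAi arrays were 0.471 for sqrd-1, 0.696 for ethe-1 and 0.564 for cysl-3 by limma.

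The rest of that list lay closer to the HT115 wild type or below it. The cyanoalanine synthase gene cysl-2, a target of the hypoxia factor HIF-1, stood at 10.96 in nduf-6 RNAi, 9.95 to 11.20 in the 4 other RNAi arrays and 11.58 in the HT115 wild type. The hypoxia target nhr-57 had 9.40 in nduf-6 RNAi and 9.19 in the HT115 wild type, and the prolyl hydroxylase gene phy-2 had 7.68 and 8.54. Of 9 measured members, 2 were at least 2-fold higher in nduf-6 RNAi (2.91% of all genes were) and none 2-fold lower, with 4 lower by any amount and a median of 0.20 (log2). Against the mean of the 4 other RNAi arrays the list had a median of 0.16 (log2), and none of its members passed an adjusted p of 0.05 by limma. In the methionine cycle, which feeds sulfur amino acids, 3 of 13 genes were at least 2-fold higher than in the HT115 wild type (2.91% of all genes were), sams-1, mthf-1 and metr-1 at 1.46, 1.22 and 1.07. One, sams-5, was at least 2-fold lower, with 5.92 in nduf-6 RNAi and 7.13 in the HT115 wild type (4.05% of all genes were at least 2-fold lower). The synthase gene sams-1 was at 11.95 in nduf-6 RNAi, within the 11.49 to 12.98 of the 4 other RNAi arrays, and at 10.49 in the HT115 wild type.

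**Figure D4:**
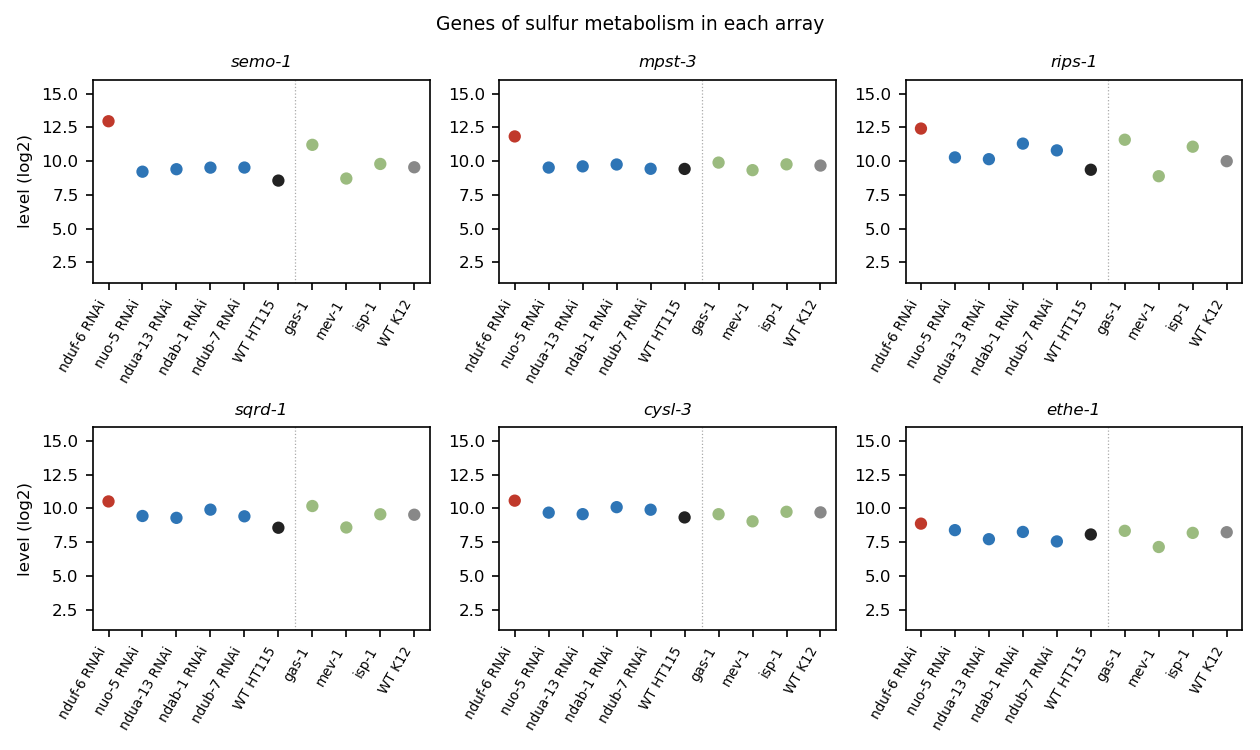
Log2 levels of semo-1, mpst-3, rips-1, sqrd-1, cysl-3 and ethe-1 in the 10 arrays, coloured by group as red nduf-6 RNAi, blue other RNAi, green missense mutants, black HT115 and grey K12 wild type. Each gene is highest in nduf-6 RNAi, with semo-1 at 12.95 there and 8.56 in the HT115 wild type.

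The remaining genes with the highest values against the HT115 wild type were mostly high in other arrays as well. The glutathione transferase gene gst-19 had 9.23 in nduf-6 RNAi, against 5.72, 5.65, 7.78 and 5.58 in RNAi of nuo-5, ndua-13, ndab-1 and ndub-7 and 4.65 in the HT115 wild type. The lectin gene clec-52 had 10.67 in nduf-6 RNAi, 7.91 to 10.53 in the 4 others and 6.89 in the HT115 wild type. The cytochrome P450 gene cyp-14A1 had 6.70 in nduf-6 RNAi, 5.52 to 6.67 in the 4 others and 3.48 in the HT115 wild type. R08F11.4 had 9.09 in nduf-6 RNAi, 6.94 to 8.67 in the 4 others and 5.12 in the HT115 wild type.

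Some of these differences turn with the control. The secreted protein genes scl-13 and scl-11 were higher than in the HT115 wild type by 3.52 and 2.91 (log2), and lower than in the K12 wild type, at -3.03 and -2.05. F57F4.2 was 11.3-fold higher than in the HT115 wild type and stood at -1.34 against the K12 wild type. Neuropeptide genes of the flp family had a median of 0.93 against the HT115 wild type, with 8 of 24 at least 2-fold higher (2.91% of all genes were), and of -0.17 against the K12 wild type. The gene flp-17 stood at 7.80 in nduf-6 RNAi, 5.72 to 7.22 in the 4 other RNAi arrays, 6.23 in the HT115 wild type and 7.90 in the K12 wild type.

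Transcripts of complex I differed little. The list of subunits holds no gene of mitochondrial DNA, and all 33 of its genes were measured. Of these, 22 were lower and 11 higher in nduf-6 RNAi than in the HT115 wild type (45% and 54.9% of all genes). None differed by 2-fold. Their median difference was -0.12 (log2), or 0.02 with the K12 wild type as control, against 0.08, 0.10, 0.13 and 0.44 in RNAi of nuo-5, ndua-13, ndab-1 and ndub-7. The 7 core subunits of the list had a median of 0.05 and the 26 accessory subunits one of -0.14. In 25 of 33 genes nduf-6 RNAi was the lowest of the 5 RNAi arrays (19.7% of all genes). By limma against the 4 other RNAi arrays, none passed an adjusted p of 0.05 and 4 were lower at an unadjusted p of 0.05.

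Among the accessory subunits ndub-7, the target of another array, was lowest of the 10 arrays in nduf-6 RNAi, at 10.99, against 11.41 in the array labelled ndub-7 RNAi and 11.58 in the HT115 wild type. The accessory gene ndub-3 had 10.49 in nduf-6 RNAi, against 11.38, 10.99, 11.35 and 11.72 in RNAi of nuo-5, ndua-13, ndab-1 and ndub-7 and 10.85 in the HT115 wild type. Of the core subunits, the iron-sulfur gene ndus-8 had 10.52 in nduf-6 RNAi, 10.92 to 11.34 in the 4 others and 11.03 in the HT115 wild type. The core gene gas-1 had 10.72 in nduf-6 RNAi, 11.23 to 11.78 in the 4 others and 10.67 in the HT115 wild type. The 2 largest differences, -0.92 for nduv-2 and 0.67 for nduf-7, were shared: nduv-2 had 11.70 in nduf-6 RNAi, 11.50 to 11.85 in the 4 others and 12.62 in the HT115 wild type.

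**Figure D5:**
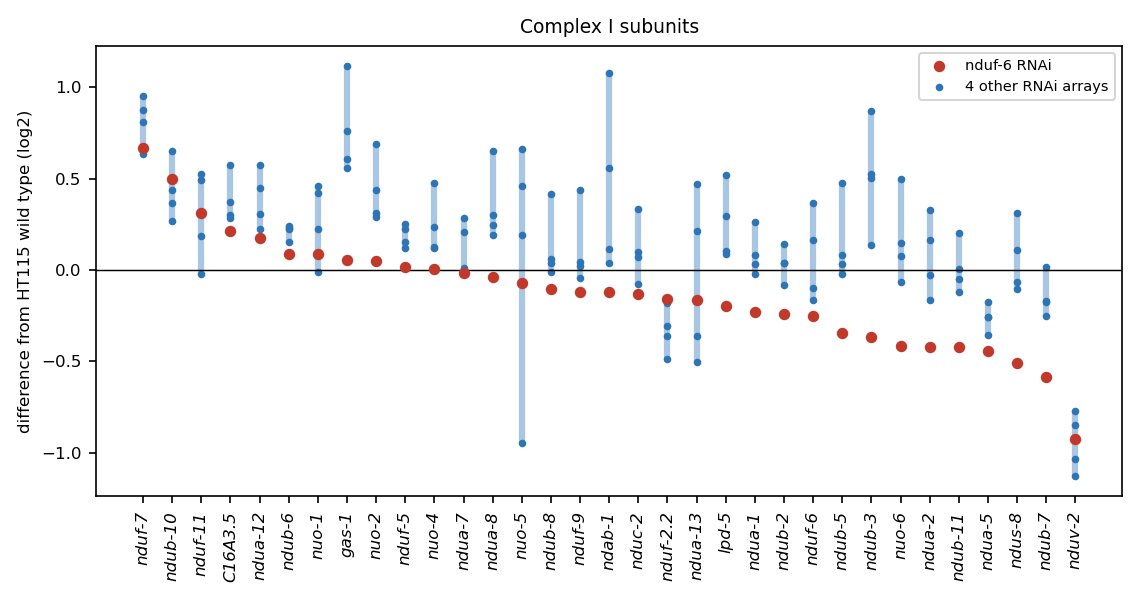
Log2 difference of each of the 33 listed complex I subunits from the HT115 wild type, ordered by nduf-6 RNAi (red), with the 4 other RNAi arrays (blue points, pale bar over their range). The nduf-6 points lie below the blue range in 25 genes, and the blue point far below 0 is nuo-5 in the array labelled for it.

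No measured gene in the lists of the other respiratory complexes differed by 2-fold either. These lists hold no gene of mitochondrial DNA, and that of complex IV includes assembly genes such as cox-11 and cox-17. Median differences from the HT115 wild type were -0.18 (log2) for 5 complex II genes, 0.11 for 10 of complex III, 0.05 for 12 of complex IV and 0.04 for 12 of the ATP synthase. The flavoprotein gene sdha-1 of complex II was the lowest of the 10 arrays, at 8.12 in nduf-6 RNAi, against 9.97, 9.53, 9.20 and 11.02 in RNAi of nuo-5, ndua-13, ndab-1 and ndub-7 and 8.84 in the HT115 wild type. The mitochondrial unfolded protein response list had a median of 0.25. Of its 13 genes none was at least 2-fold higher (2.91% of all genes were) and 1 at least 2-fold lower (4.05%). That gene, ubl-5, stood at 9.35 in nduf-6 RNAi, 9.16 to 9.99 in the 4 other RNAi arrays and 10.70 in the HT115 wild type. Its chaperone genes hsp-6 and hsp-60 stood at 10.88 and 10.59 in nduf-6 RNAi and at 10.01 and 9.78 in the HT115 wild type. The 4 other RNAi arrays had hsp-6 at 10.60 to 11.19, so nduf-6 RNAi lay among them.

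Cytosolic heat shock genes had a median of 0.60 (log2) in nduf-6 RNAi, against 0.05, 0.04, 0.07 and -0.54 in RNAi of nuo-5, ndua-13, ndab-1 and ndub-7. Of 12 genes, 4 were at least 2-fold higher than in the HT115 wild type (2.91% of all genes were) and 2 at least 2-fold lower (4.05%). The small heat shock gene hsp-16.2 had 5.86 in nduf-6 RNAi, against 6.07, 5.17, 5.73 and 4.05 in the 4 others and 4.02 in the HT115 wild type. The inducible hsp-70 had 6.17 in nduf-6 RNAi, 3.91 to 6.37 in the 4 others and 4.43 in the HT115 wild type, and hsp-12.1 had 8.31, 7.41 to 8.39 and 10.57. These 3 genes were inside the range of the 4 other RNAi arrays. In contrast, hsp-43 was highest of the 10 arrays, at 11.13 in nduf-6 RNAi, 9.63 to 10.44 in the 4 others and 10.40 in the HT115 wild type. By limma none of the 12 passed, with 1 higher and 1 lower at an unadjusted p of 0.05.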

How the data were processed

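The authors deposited 1 log2 value per probe set and array. Their range of 1.43 to 16.01 shows the log2 scale, and the summary method behind them is not stated in the labels. Because the medians of the arrays lay up to 0.128 apart (limit 0.1), all 10 arrays were brought to 1 distribution by quantile normalization. The arrays carry 22625 probe sets, from which 77 controls, 887 with several gene symbols and 895 with none were left out, and hif-1 and egl-9 are therefore not analysed here. Of the 20766 with 1 symbol, 20701 matched RefSeq genes of WBcel235, whose coordinates were not used. Those averaging below the 25th percentile (2.66) were dropped, and the probe set with the highest mean stood for each of 12432 genes.

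Against the HT115 wild type, differences are array minus array, without a test. Against the 4 other RNAi arrays, limma 3.58.1 in R 4.3.3 was used with moderated variances, a mean-variance trend, 3 residual degrees of freedom and two-sided Benjamini-Hochberg adjustment over all genes. The fit was also run on simulated data, with spreads shuffled over genes and the single array made to vary like the other 4. That run therefore cannot check the assumption about the single array. Members and gene lists were chosen with earlier results of these data known. Named genes are the 5 targets, the complex I subunits, the 15 highest and 15 lowest differences from wild type, 12 per direction by limma p (each among genes above the median level of 5.96), 6 per direction and list or role, and 5 per direction with the largest gap to the other arrays. Alternatives varied normalization, filter, probe set choice, control array, fold threshold, arrays in the fit and moderation, and left out each of the other RNAi arrays.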

Additional observations from a re-analysis of the deposited data

Results flagged for a closer look

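In 47 gene lists, each with at least 4 measured genes, the highest and lowest of the 5 RNAi arrays were compared with the rest by the gap to the nearest array. Chance alone marks about 1 in 20 such groups, and 2 were marked. Both belonged to ndub-7 RNAi and none to nduf-6 RNAi. Fatty acid desaturases and elongases had a median difference from the HT115 wild type of 0.71 (log2) in ndub-7 RNAi, against -0.18 to 0.01 in the others, with nduf-6 RNAi at -0.04. Branched-chain amino acid breakdown had 0.74 in ndub-7 RNAi, against 0.18 to 0.31 in the others, with nduf-6 RNAi at 0.24.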

How the results depend on the processing

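Against wild type, the sperm median lay between -3.01 and -1.94 (log2) and the oocyte median between 0.27 and 0.35 over all alternatives, while the complex I median lay between -0.16 and 0.02 and the body-shape collagen median between -0.65 and 0.03, so neither has a settled direction. Each condition has 1 array, so no value here has a replicate error, and detection calls were not used. With the K12 wild type as control, 194 genes were 2-fold higher, and with the mean of both wild types 158. The numbered collagens then stood at -0.70 and -0.51 against wild type, and without a filter at -0.85 against the other RNAi arrays. At 1.5-fold 1083 genes were higher and 1318 lower, and at 4-fold 62 and 110. Against the 4 other RNAi arrays, limma passed 1 gene as lower with deposited values, 4 higher and 1 lower after median centring, 344 and 18 with no filter, 1 and 1 with a filter at the 40th percentile, 5 lower with all 10 arrays, and 1 higher and 0 lower without the trend (947 at an unadjusted p of 0.05). Leaving out 1 other RNAi array gave 0 to 31 higher and 0 to 69 lower. Without ndub-7 RNAi all 14 genes still passed. With the K12 wild type the medians of male (-0.014), neuron (-0.12) and flp genes (-0.17) and the values of F57F4.2 (-1.34), scl-11 (-2.05) and scl-13 (-3.03) turned sign, and without a filter the adenine nucleotide translocases turned to 0.069 against the other RNAi arrays. The cause was not tested. No paired analysis was possible because each condition has 1 array and the numbers do not pair arrays.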

Other observations

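The 16 measured fatty acid desaturases and elongases had a median difference of -0.04 (log2) from the HT115 wild type in nduf-6 RNAi. Of these, 2 were at least 2-fold lower (4.05% of all genes were) and none 2-fold higher (2.91%). The fatty acid desaturase gene fat-7, which makes oleic acid, stood at 3.23 (log2) in nduf-6 RNAi, against 5.68, 4.96, 5.97 and 8.33 in RNAi of nuo-5, ndua-13, ndab-1 and ndub-7 and 5.95 in the HT115 wild type. The elongase gene elo-6 differed by -0.91 from the HT115 wild type, which had 11.91, and fat-5 had 8.21 in nduf-6 RNAi, 8.93 to 10.49 in the 4 others and 9.07 in that wild type. All 3 were lowest of the 10 arrays in nduf-6 RNAi. The polyunsaturated fatty acid genes fat-2 and fat-3 were instead at 13.70 and 13.54 in nduf-6 RNAi and at 13.42 and 13.33 in the HT115 wild type. The acyl-CoA dehydrogenase gene acdh-1, known as a marker of propionate breakdown, had 11.90 in nduf-6 RNAi, against 11.43, 9.41, 11.15 and 12.90 in the 4 other RNAi arrays and 9.61 in the HT115 wild type. The peroxisomal oxidase gene acox-1.2 had 4.21 in nduf-6 RNAi, 6.56 to 10.46 in the 4 others and 5.17 in the HT115 wild type.

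Defence genes were mixed. Of 18 epidermal antimicrobial peptide genes, 6 were at least 2-fold lower in nduf-6 RNAi than in the HT115 wild type (4.05% of all genes were) and none 2-fold higher, with a median of -0.59 (log2), against -0.48, -0.46, -0.13 and -0.05 in RNAi of nuo-5, ndua-13, ndab-1 and ndub-7. The peptide gene nlp-29, which responds to wounding and fungal infection, had 10.25 in nduf-6 RNAi, 9.86 to 10.36 in the 4 others and 11.56 in the HT115 wild type. The lysozyme gene lys-2 was lowest of the 10 arrays, at 10.77 in nduf-6 RNAi, 11.93 to 12.73 in the 4 others and 11.87 in the HT115 wild type, while lys-3 was at 7.36 in nduf-6 RNAi, higher by 2.66 than in that wild type. Genes of the RNA interference machinery had medians near 0, at 0.07 for 10 genes of uptake and dicing and 0.09 for 26 of amplification and Argonautes, with none 2-fold apart from the HT115 wild type. The Argonaute genes alg-3 and alg-4, which act in the sperm-forming germline, were at 1.72 and 2.68 in nduf-6 RNAi, 2.56 to 4.29 and 3.91 to 6.71 in the 4 others, and 2.12 and 3.49 in the HT115 wild type.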
